A study of Mus musculus with 6 samples.

Results

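The genes described here are 9 regulators of autophagy and the lysosome: Sqstm1, Map1lc3a, Map1lc3b, Gabarapl1, Becn1, Ulk1, Atg7, Tfeb and Lamp2. They were chosen by name, as the rows of the count table that carry these symbols, with earlier results of these data known. They are 9 of 56691 gene rows, and all 9 were among the 15429 genes with enough counts to be tested. Their expression was measured by bulk RNA sequencing of primary cardiomyocytes from neonatal mice. The cells of both groups had received an adenovirus built around the cardiac troponin T (cTNT) promoter, which drives expression in cardiomyocytes. One group of 3 libraries received the virus named Ad-cTNT vector and has the genotype label Control. The other 3 received Ad-cTNT-HMGB2 and have the genotype label HMGB2 overexpression, HMGB2 being a chromatin protein of the high mobility group that bends DNA. Strain, age in days, viral dose, duration of expression and the species of the HMGB2 insert are not stated in the labels, and no library of cells without virus was analysed. The labels do not say whether the replicates are separate cultures or animals, so p-values measure the spread between these libraries, which may be technical.

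In autophagy, a membrane sac closes around cytoplasm and fuses with the lysosome, where the contents are degraded. The kinase ULK1 starts the process, Beclin 1 (Becn1) belongs to the lipid kinase complex that marks the site, and ATG7 is the E1-like enzyme that activates the ubiquitin-like ATG8 proteins (the LC3 proteins encoded by Map1lc3a and Map1lc3b, and the GABARAP proteins) for coupling to lipid. The receptor p62, encoded by Sqstm1, ties ubiquitin-marked cargo to ATG8 proteins and is itself degraded with it, TFEB is a transcription factor of lysosomal and autophagy genes, and LAMP2 is a lysosomal membrane protein whose loss in people causes a cardiomyopathy.

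The total count per library was between 12498215 and 16618365, and a member had between 161 counts (Tfeb) and 9690 counts (Sqstm1) in a library. Expression within a gene is given as CPM (counts on a scale shared by all libraries) after adjustment by TMM, a factor that corrects for differences in RNA composition. Hmgb2 itself was 4.33-fold higher in the HMGB2 libraries, at 42.5 ± 5.58 CPM with vector and 184 ± 10.8 CPM with HMGB2 (SD, n = 3 each). Transcripts of the virus and of the chromosome were not separated, and Gm4739, a copy that is 99.7% identical over 24.1% of the Hmgb2 transcript, was also higher (log2 fold change 3.06), so this level is uncertain. On the second principal component of the 500 most variable genes (14.3% of their variance), vector 1 and HMGB2 3 stood apart. Their values were 14.2 and 10.5, against -8.47 to -4.37 in the other 4 libraries. For the 9 genes, changes in call or in overlap of the groups without both are therefore also given. For some further genes, changed calls are given too. Markers of cardiomyocytes moved between the groups: 8 of 10 rose and none fell, and their summed level was 11580 to 13430 CPM with vector and 21430 to 23940 CPM with HMGB2. Of 9 fibroblast markers 0 rose and 2 fell (7935 to 10260 against 6723 to 8116 CPM), and of 8 endothelial markers 0 rose and 2 fell (3184 to 3224 against 2728 to 2797 CPM). Of 7 smooth muscle and pericyte markers 1 rose and 1 fell (1397 to 1452 against 1385 to 1440 CPM). Of 5 epicardial markers 0 rose and 1 fell (154.0 to 175.9 against 124.9 to 134.2 CPM). Macrophage markers were low, at 50.2 to 55.8 against 34.2 to 41.0 CPM, with 3 of 9 tested lower, and the 5 red blood cell markers summed to at most 1.09 CPM in any library, with 2 of them at 0 in all 6. The shares of tested markers that rose or fell were 80% (cardiomyocyte), 22.2% (fibroblast) and 25% (endothelial). They were 28.6% (smooth muscle and pericyte), 20% (epicardial) and 33.3% (macrophage) in the other lists. Over all genes tested, the share was 25.2%. The part of these cell types in the results on the 9 genes was not tested.

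Of the 9 genes, 1 passed the test and it was lower with HMGB2. Sqstm1 fell 1.71-fold, while the other 8 had log2 fold changes between -0.05 and 0.22 and did not pass the test. A gene passed when the adjusted p of edgeR's quasi-likelihood test, with Benjamini-Hochberg adjustment over all 15429 genes, was under 0.05. The share of members called was 11.1%, against 25.2% of all tested genes. By direction, 14.4% of all tested genes rose and 10.8% fell. In 2 members (22.2%), Sqstm1 and Lamp2, all HMGB2 libraries lay on one side of all vector libraries, which held for 40.5% of all tested genes. Without vector 1 and HMGB2 3 together, the groups also no longer overlapped in Map1lc3a, Map1lc3b, Gabarapl1, Becn1 and Tfeb. None of these passed in that setting (edgeR adjusted p 0.0847 to 0.401), and separation arises more easily by chance with 2 libraries against 2. The 40.5% is for all 6 libraries. No share of all tested genes with 2 against 2 is given, so nothing is drawn from these separations. The median absolute log2 fold change of the 9 was 0.06, beside 0.23 over all genes tested. Sqstm1 was also the single member with an unadjusted p under 0.05.

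**Figure D1:**
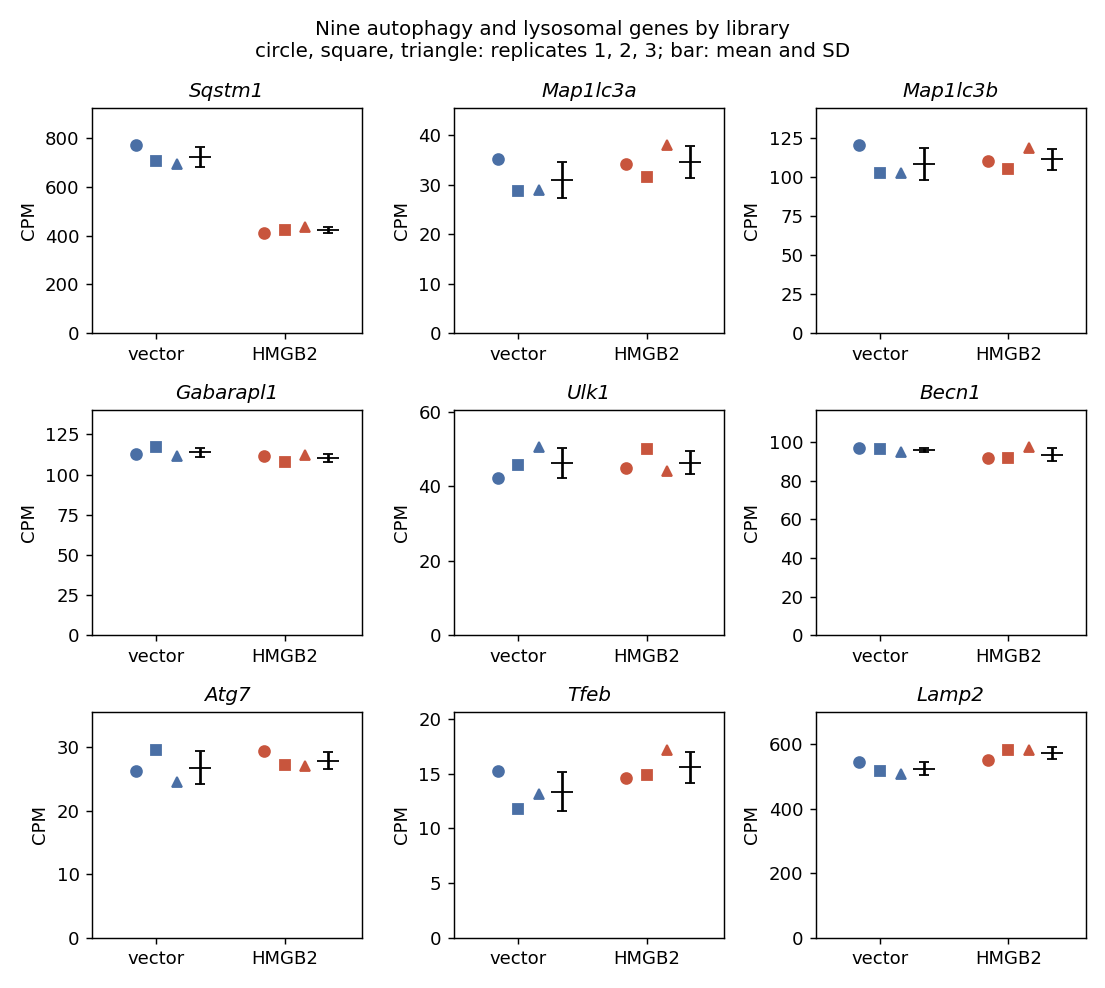
Expression of the 9 genes in each library, with TMM-scaled CPM on the vertical axis (starting at 0) and the group on the horizontal axis. Circles, squares and triangles are replicates 1, 2 and 3, and bars give the mean and SD of 3 libraries. The Sqstm1 points lie between 692 and 771 CPM with vector and between 411 and 436 CPM with HMGB2, while in 7 of the other 8 genes the groups overlap.

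Sqstm1 spans 50199366 to 50210827 on the minus strand of chromosome 11 (GRCm38, GENCODE M21). The deposited tables give none of the 9 genes the same start and end as this annotation, so spans and exon overlaps here describe GENCODE M21, and the gene models behind the counts may differ. As the one member past the threshold, its upstream sequence is shown, from RefSeq on GRCm38.p6, on the minus strand at chr11:50210910-50211070, 5' to 3', from 250 to 90 bases before the start that RefSeq gives.
Sqstm1: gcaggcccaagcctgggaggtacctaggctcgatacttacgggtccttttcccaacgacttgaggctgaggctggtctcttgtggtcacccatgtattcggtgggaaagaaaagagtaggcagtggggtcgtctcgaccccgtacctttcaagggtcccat
The 300-base window around this start (250 bases before it and 50 after) was searched on both strands for the CLEAR element bound by TFEB, CACGTG (the E-box core, which lies inside it), TGACNNNGC (the antioxidant response element core), GAANNTTC and TTCNNGAA (pairs of heat shock element units) and GTAAACA (the FOXO motif). None of these motifs is in the Sqstm1 window. Over all 32851 RefSeq windows of this length, the shares that hold them are 0.326%, 7.15%, 12.4%, 7.86%, 8.52% and 3.65%, in that order. A match, or its absence, is a description of this window and says nothing of binding.

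Sqstm1 was measured at 771, 705 and 692 CPM in vector 1, 2 and 3, and at 411, 423 and 436 CPM in HMGB2 1, 2 and 3. Every HMGB2 library was below every vector library, and the gap between the groups was larger than the range within either. The group means were 723 ± 42.2 and 423 ± 12.7 CPM (SD, n = 3 each), a change of -41.4% (95% interval -47.7% to -34.4%). The log2 fold change was -0.77 (SE 0.07), with an edgeR adjusted p of 7.39e-05. In bulk RNA, fewer cells that express a gene and less of its RNA per cell cannot be told apart, which holds for all genes here. Leaving out each library in turn gave -0.80 to -0.72, and leaving out vector 1 and HMGB2 3 together gave -0.74. The summed markers of cardiomyocytes, given above, were higher with HMGB2 and those of endothelial cells, macrophages and epicardial cells lower. Single epicardial markers did not move one way, as 3 of 5 had a positive log2 fold change (median 0.02). Of 9 fibroblast markers 0 had a positive log2 fold change (median -0.23), while their sums overlapped between the groups. The part of these cell types in the Sqstm1 difference was not tested.

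Sqstm1 ranked 197 by mean CPM among the genes tested. Of the 1662 genes that were lower with HMGB2, 285 had a more negative log2 fold change. Mrnip, a gene on the opposite strand, shares 580 exonic bases with Sqstm1 (17.3% of its exons), and the assignment of reads in shared exons is not stated in the labels. Mrnip was counted at 0.72 to 2.58 CPM, and its log2 fold change was 0.51 (edgeR adjusted p = 0.402). The 2 genes whose levels over the 6 libraries lay nearest to those of Sqstm1, by the Euclidean distance of log2 CPM centred on each gene's mean among 13461 genes, were Hsp90ab1 (distance 0.05), which encodes the cytosolic chaperone HSP90 beta, and Ccn1 (distance 0.08), which encodes a secreted matrix-associated protein. Hsp90ab1 went from 2957 ± 124 to 1742 ± 60.4 CPM and Ccn1 from 623 ± 47.5 to 362 ± 14.8 CPM (SD, n = 3 each). These genes were picked for their likeness to Sqstm1, so their fall is a description.

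**Figure D2:**
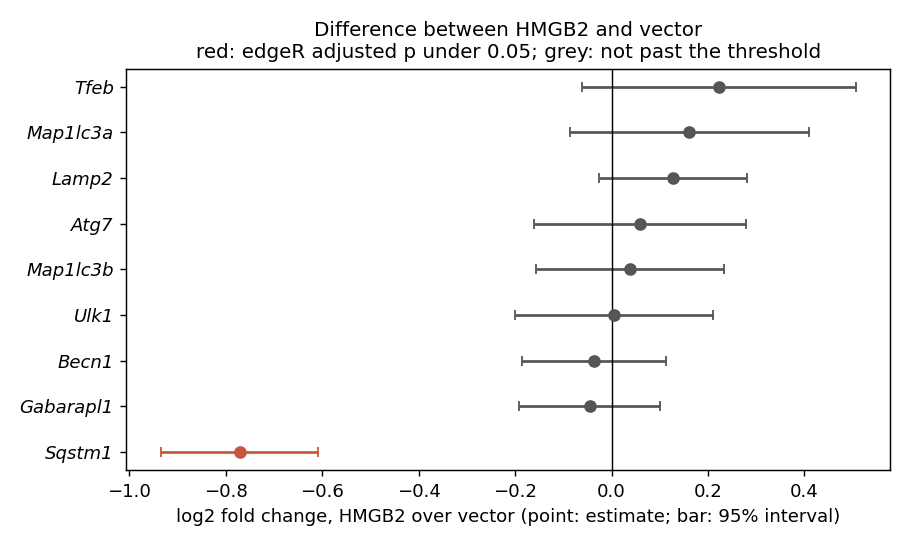
Log2 fold change of HMGB2 over vector (horizontal axis) for the 9 genes, with points for the edgeR estimate and bars for its 95% interval. The interval of Sqstm1 runs from -0.93 to -0.61, and those of the other 8 genes contain 0 and lie between -0.20 and 0.51.

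None of the 3 ATG8 genes among the members passed the test. Map1lc3a, at 155276297 to 155278073 on the plus strand of chromosome 2, encodes LC3A, and was measured at 35.1, 28.7 and 28.9 CPM with vector and 34.1, 31.5 and 38.0 CPM with HMGB2. The highest library of each group was vector 1 and HMGB2 3, the pair that stood apart, and the groups overlapped. Its log2 fold change was 0.16 (95% interval -0.09 to 0.41, edgeR adjusted p = 0.329), and 0.19 without vector 1 and HMGB2 3 together, where it did not pass either (edgeR adjusted p = 0.0847).

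Map1lc3b encodes LC3B, the form most used to follow autophagosomes, at 121590361 to 121598760 on the plus strand of chromosome 8. It was measured at 120.7, 102.5 and 102.9 CPM with vector and at 110.7, 105.5 and 118.6 CPM with HMGB2. The vector libraries enclosed all 3 HMGB2 libraries, and vector 1 and HMGB2 3 were again the highest of their groups. The difference was 0.04 on the log2 scale (95% interval -0.16 to 0.23, edgeR adjusted p = 0.792), and it changed sign when HMGB2 3, vector 2 or vector 3 was left out. Zcchc14, on the opposite strand, shares 58 exonic bases (0.772%) with it. The window of Map1lc3b held TGACTCGGC, a match to TGACNNNGC that starts 5 bases after the RefSeq start.

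Gabarapl1 encodes a GABARAP-like protein and lies at 129533160 to 129542346 on the plus strand of chromosome 6. It varied least of the 3, at 112.9, 116.9 and 111.8 CPM with vector and 111.3, 107.7 and 111.9 CPM with HMGB2. The groups overlapped narrowly, since only HMGB2 3 exceeded the lowest vector library. Its log2 fold change was -0.05 (95% interval -0.19 to 0.10, edgeR adjusted p = 0.661), which as a percentage is an interval of -12.5% to 7.23%. The noncoding 1700101I11Rik on the opposite strand covers 28.3% of its exons and was counted at 0.40 to 1.46 CPM.

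With Gabarap and Gabarapl2, which are not among the 9, these genes make up the ATG8 family as counted here. Between genes, levels were compared per length, as the deposited FPKM (fragments scaled by gene length and library total). Gabarap made up 55.4 ± 1.76% of the summed ATG8 FPKM with vector and 56.7 ± 1.596% with HMGB2 (SD, n = 3 each). Gabarapl1 made up 22.1 ± 1.99% and 20.1 ± 1.33%, Map1lc3a 10.1 ± 0.358% and 10.7 ± 0.537%, and Map1lc3b 5.61 ± 0.113% and 5.45 ± 0.218%. The ranges of the groups overlapped for each of these 4 genes and for Gabarapl2 (6.72 ± 0.207% and 6.94 ± 0.263%). The summed ATG8 FPKM was 283, 245 and 239 with vector and 259, 264 and 301 with HMGB2, again highest in vector 1 and HMGB2 3. Without those 2 libraries the groups no longer overlapped in this sum (239 and 245 against 259 and 264). Nor did they overlap in the shares of Gabarap (54.1% to 54.8% against 55.0% to 57.0%) and Gabarapl1 (23.1% to 23.4% against 20.3% to 21.4%). The shares of Map1lc3a, Map1lc3b and Gabarapl2 still overlapped. Shares are parts of one total, so those of Gabarap and Gabarapl1 are not independent. Separation held for 40.5% of all tested genes with all 6 libraries, and it arises more easily by chance with 2 against 2. That share is of gene levels, and no share with 2 against 2 is given to set beside these separations. These differences were not tested.

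The ratio of Sqstm1 FPKM to summed ATG8 FPKM, a measure chosen after the values were seen, was 0.81, 0.84 and 0.86 with vector and 0.47, 0.48 and 0.44 with HMGB2. All 3 HMGB2 ratios lay below the vector ratios, with means of 0.84 ± 0.02 and 0.46 ± 0.02 (SD, n = 3 each), a log2 difference of -0.85. As the choice fixed this separation, no test is given.

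**Figure D3:**
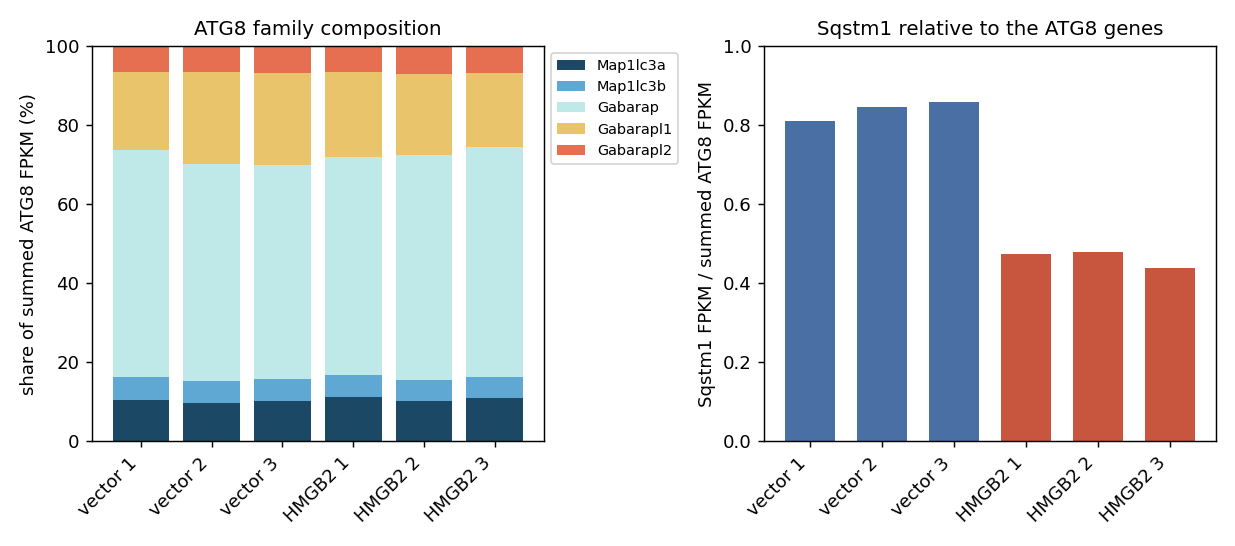
Left, the share in percent of the summed FPKM of the 5 ATG8 genes taken by each gene, as stacked bars for each library; Gabarap holds the largest share in all 6, at 54.1% to 58.2%. Right, Sqstm1 FPKM divided by the summed ATG8 FPKM in each library, at 0.81 to 0.86 with vector and 0.44 to 0.48 with HMGB2.

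Neither gene of the early kinase complexes among the members passed the test. Ulk1 lies at 110784488 to 110810097 on the minus strand of chromosome 5 and encodes the kinase that starts autophagosome formation. Its levels were 42.4, 45.8 and 50.5 CPM with vector and 45.1, 50.04 and 44.2 CPM with HMGB2, so that the 3 HMGB2 values fell inside the vector range. The log2 fold change of 0.00 (0.0046 before rounding) had a 95% interval of -0.20 to 0.21 (edgeR adjusted p = 0.977), or -13.0% to 15.7%. Its sign differed between settings, and no setting put it past the threshold.

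Becn1 lies at 101285952 to 101302286 on the minus strand of chromosome 11. It was measured at 96.7, 96.6 and 94.6 CPM with vector and at 91.7, 91.7 and 97.2 CPM with HMGB2, where HMGB2 3 was the highest of all 6 and the other HMGB2 libraries the lowest. The log2 fold change was -0.04 (95% interval -0.19 to 0.11, edgeR adjusted p = 0.733). Cntd1 on the opposite strand covers 43.9% of the Becn1 exons and was counted at 0.18 to 0.786 CPM.

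Atg7 lies at 114643097 to 114860614 on the plus strand of chromosome 6. It is shown by sequence because, among the 7 members with a RefSeq promoter entry (all but Map1lc3a and Becn1), its window alone held CACGTG before the start. The stretch is chr6:114670846-114671095 on the plus strand (GRCm38.p6, RefSeq), the 250 bases before a RefSeq start that lies inside the gene as GENCODE M21 draws it, with the match in capitals.
Atg7: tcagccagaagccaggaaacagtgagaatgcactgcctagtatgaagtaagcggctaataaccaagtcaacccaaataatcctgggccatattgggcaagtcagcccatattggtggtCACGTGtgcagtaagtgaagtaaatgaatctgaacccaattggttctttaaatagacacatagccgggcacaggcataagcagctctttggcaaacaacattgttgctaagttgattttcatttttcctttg
The match begins 132 bases before that start, and the longer CLEAR element is in none of the windows of the 7 members. Atg7 was measured at 26.2, 29.6 and 24.5 CPM with vector and 29.5, 27.1 and 27.1 CPM with HMGB2. Vector libraries were both the highest and the lowest, so the groups overlapped fully. The log2 fold change was 0.06 (95% interval -0.16 to 0.28, edgeR adjusted p = 0.708), and it was -0.00 (-0.004248) without vector 3.

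Tfeb had the lowest counts of the 9 and the widest interval. It lies at 47737030 to 47792419 on the plus strand of chromosome 17, and was measured at 15.2, 11.7 and 13.1 CPM with vector and 14.6, 14.9 and 17.2 CPM with HMGB2. HMGB2 3 was the highest library and vector 1 the next, above the other 2 HMGB2 libraries. The log2 fold change was 0.22 (95% interval -0.06 to 0.51, edgeR adjusted p = 0.237), an interval of -4.11% to 42.1%.

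Lamp2 lies at 38401357 to 38456454 on the minus strand of chromosome X, where 3 coding transcripts are annotated, and the gene-level counts do not separate the LAMP2 isoforms. Its levels were 545.9, 518.0 and 507.4 CPM with vector and 551.7, 582.6 and 582.3 CPM with HMGB2. All HMGB2 libraries were above all vector libraries, with HMGB2 1 only narrowly above vector 1. The means were 524 ± 19.9 and 572 ± 17.7 CPM (SD, n = 3 each). The log2 fold change of 0.13 (95% interval -0.03 to 0.28) did not pass the test (edgeR adjusted p = 0.21). Without vector 1 and HMGB2 3 together it was 0.15 and passed (edgeR adjusted p = 0.00172), in a fit of 2 libraries against 2 where 40.0% of all tested genes passed. Lamp2 and Sqstm1 were then the 2 members past the threshold, 1 in each direction.

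Per length, the members spanned nearly the same order in both groups. With vector, Sqstm1 was highest at 214 ± 13.7 FPKM, followed by Gabarapl1 (56.2 ± 1.08) and Lamp2 (54.5 ± 2.35), which overlapped each other. Map1lc3a stood at 26.0 ± 3.23 FPKM, and Map1lc3b (14.4 ± 1.47) overlapped Becn1 (13.5 ± 0.19). Ulk1 (7.08 ± 0.60), Atg7 (3.82 ± 0.352) and Tfeb (2.34 ± 0.322) were the lowest and did not overlap. With HMGB2, Sqstm1 was still highest at 127 ± 4.67 FPKM, and Lamp2 (60.3 ± 2.12) came before Gabarapl1 (55.2 ± 1.45) with no overlap between them. The remaining 6 kept their order, from Map1lc3a at 29.5 ± 2.999 FPKM down to Tfeb at 2.77 ± 0.272, and no neighbours overlapped. The mean FPKM of Sqstm1 was 3.81 times that of the next member with vector and 2.11 times with HMGB2.

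The rest of the pathway was described with 12 lists of 189 further genes, of which 188 were tested, 25 rose and 12 fell. Their share called was 19.7%, beside 25.2% over all genes, and their median log2 fold change was 0.06, beside -0.00 (-0.0022) over all genes. By list, the share called was above 25.2% only for ATG8 conjugation genes (30%) and for mTORC1 and AMPK genes (29%). Of the 37 called genes, 18 were called in all 6 fits that left out 1 library. The counts moved with the library left out, as did the share of all tested genes that passed: 16 rose without HMGB2 1, HMGB2 2 or vector 2, 17 without vector 3, 21 without HMGB2 3 and 35 without vector 1, while 3 fell without HMGB2 1 or HMGB2 2, 5 without vector 2, 7 without vector 3 and 8 without HMGB2 3. Over all tested genes, 1567 of 15765 rose and 866 fell without HMGB2 1, the fewest of these fits, and 2526 of 15823 rose and 1960 fell without vector 1, the most. Without vector 1 and HMGB2 3 together, 53 rose and 24 fell, in a fit where 20.9% of all genes rose and 19.1% fell. The summed marker levels of some cell types, given above, also differed between the groups, and their part in these counts was not tested either.

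**Figure D4:**
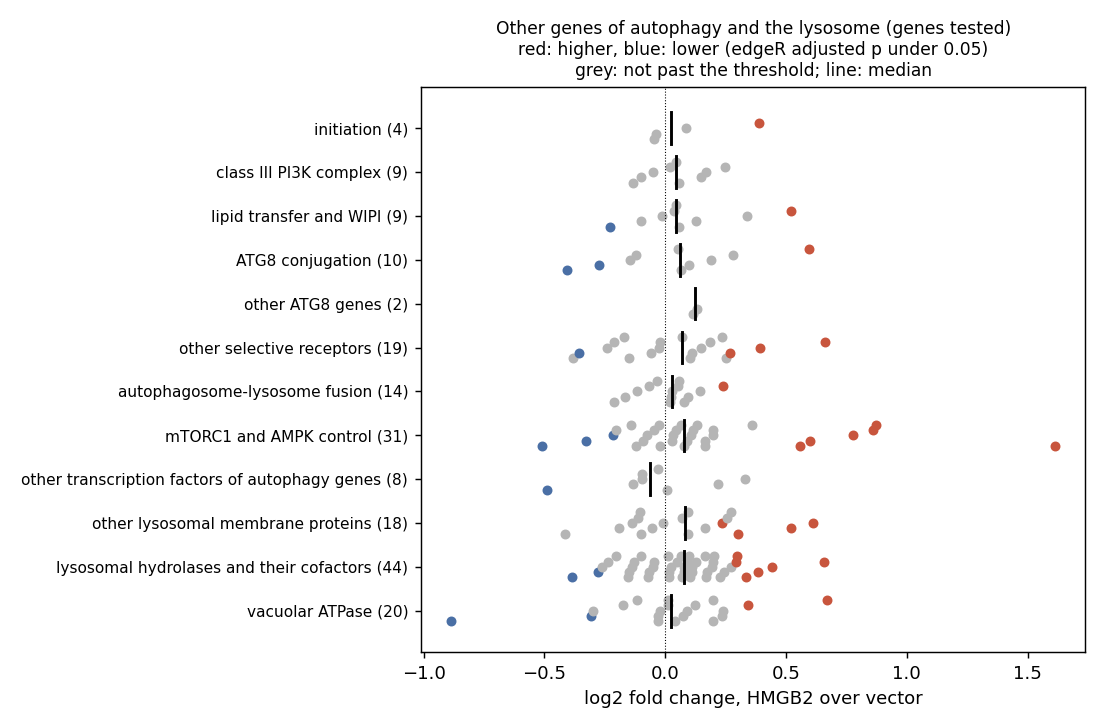
Log2 fold change of HMGB2 over vector (horizontal axis) for the tested genes of the 12 lists, with the number tested in brackets; red points rose, blue points fell, grey points did not pass, and black lines are list medians. The medians lie between -0.06 and 0.12, and the points past the threshold lie on both sides of 0.

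Around Ulk1 and Becn1, 1 of 4 other initiation genes (25%) rose. On the list around the class III lipid kinase complex, which also holds genes outside it such as Vmp1, 0 of 9 passed. Of the lipid transfer and WIPI genes below, 22.2% passed, and of all tested genes 25.2%. Atg13, the ULK1 partner, rose from 60.4 ± 3.45 CPM to 78.9 ± 0.30 CPM, a log2 fold change of 0.39 with an edgeR adjusted p of 0.00406. Vmp1, a membrane scramblase, was measured at 120 ± 7.12 and 142 ± 13.2 CPM (edgeR adjusted p = 0.0662, 0.0259 without vector 1 and 0.00109 without vector 1 and HMGB2 3 together), and Sh3glb1, a curvature protein that binds the complex, at 333 ± 6.60 and 338 ± 5.73 CPM. Among 9 lipid transfer and WIPI genes, Atg9a, a scramblase of the growing membrane, rose from 33.9 ± 3.96 to 48.6 ± 5.49 CPM, and Wipi2, which binds the lipid made by the kinase, fell from 99.6 ± 3.57 to 85.0 ± 0.83 CPM. The call of Wipi2 was lost without HMGB2 1, 2 or 3, vector 2 or vector 3 (edgeR adjusted p 0.0717 to 0.125).

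Around Atg7, 1 of 10 other ATG8 conjugation genes rose and 2 fell (30% called, beside 25.2% over all genes). Atg3, the E2-like enzyme that takes ATG8 proteins over from ATG7, fell from 63.3 ± 7.03 to 47.8 ± 2.28 CPM, a call lost without HMGB2 1 or HMGB2 2 (edgeR adjusted p 0.0607 and 0.0532). Atg12, the other ubiquitin-like protein that ATG7 activates, fell from 43.3 ± 3.15 to 35.9 ± 1.94 CPM, lost without any one library but vector 1 (0.065 to 0.193). Atg10, the E2-like enzyme for ATG12, rose from 5.56 ± 0.53 to 8.40 ± 1.62 CPM, lost without HMGB2 2, HMGB2 3, vector 2 or vector 3 (0.0896 to 0.123). Neither other ATG8 gene passed with all 6 libraries: Gabarap was measured at 264 ± 32.1 and 286 ± 28.9 CPM (edgeR adjusted p = 0.467, and 0.00873 without vector 1 and HMGB2 3 together), and Gabarapl2 at 40.2 ± 2.99 and 44.1 ± 3.62 CPM.

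Of 19 receptors and cargo adaptors other than Sqstm1, 3 rose and 1 fell. The share called was 21.1% for these and 7.14% for the fusion genes below, beside 25.2% over all genes. Bnip3, a mitophagy receptor, rose from 123.1 ± 15.8 to 195 ± 23.2 CPM (edgeR adjusted p = 0.00297), a call not made without vector 1 and HMGB2 3 together (0.163). Its relative Bnip3l rose from 109 ± 6.34 to 131 ± 6.51 CPM, lost without HMGB2 1, HMGB2 2, vector 2 or vector 3 (0.0642 to 0.128). Retreg1, a receptor for the endoplasmic reticulum, fell from 81.4 ± 4.37 to 63.6 ± 1.92 CPM. Of 14 fusion genes, Vps41, a subunit of the HOPS tether, was the 1 that rose, from 70.9 ± 4.60 to 83.6 ± 4.05 CPM, and each single library but vector 1 was needed for it (0.0815 to 0.181).

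Upstream of Ulk1 and Tfeb, 6 of 31 mTORC1 and AMPK genes rose and 3 fell (29% called, beside 25.2% over all genes). Prkag2, an AMPK gamma subunit, rose from 49.8 ± 4.60 to 91.1 ± 0.30 CPM, a log2 fold change of 0.87 with an edgeR adjusted p of 7.29e-05, and Sesn1, a sestrin that restrains mTORC1, rose from 18.7 ± 1.33 to 32.0 ± 2.04 CPM. Prkaa2, an AMPK catalytic subunit named here after its values were seen, rose from 75.8 ± 11.7 to 138 ± 13.8 CPM, while its paralog Prkaa1 was measured at 109.9 ± 3.44 and 95.3 ± 3.38 CPM (edgeR adjusted p = 0.0537). The 4 Rag GTPase genes, also named afterwards, did not move one way. Rragd rose from 45.2 ± 1.23 to 66.5 ± 1.88 CPM, Rragc fell from 123.5 ± 3.50 to 106.5 ± 0.89 CPM (lost without any one library but vector 1, edgeR adjusted p 0.0742 to 0.13), and Rraga was measured at 68.3 ± 8.0 and 70.3 ± 3.05 CPM. The largest log2 fold change of the lists, 1.61, was that of Rragb, at 0.37 ± 0.21 and 1.16 ± 0.33 CPM, a call lost without HMGB2 1, HMGB2 2, vector 1 or vector 3 (edgeR adjusted p 0.0713 to 0.118). Fnip2, a folliculin partner, and Akt1s1, the mTORC1 inhibitor PRAS40, fell, from 53.3 ± 9.69 to 37.4 ± 5.17 and from 86.5 ± 9.21 to 68.8 ± 5.75 CPM. Both calls were lost without HMGB2 1, HMGB2 2 or vector 3, and also without HMGB2 3 or vector 2 for Fnip2 and without vector 1 for Akt1s1 (0.0531 to 0.142). Of 8 transcription factors other than Tfeb, Hsf1, the heat shock factor, was the 1 that fell, from 27.7 ± 1.43 to 19.7 ± 0.48 CPM. The share called on this list was 12.5%.

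Around Lamp2, 4 of 18 other lysosomal membrane genes rose and 0 fell, 6 of 44 hydrolase and cofactor genes rose and 2 fell, and 2 of 20 vacuolar ATPase genes rose and 2 fell. The shares called were 22.2%, 18.2% and 20% in that order, beside 25.2% over all genes. Scarb2, the lysosomal membrane protein LIMP-2, rose from 230 ± 4.65 to 352 ± 2.35 CPM, a log2 fold change of 0.61 with an edgeR adjusted p of 0.000142, and Laptm4b from 93.0 ± 14.2 to 133 ± 8.39 CPM. Among hydrolases, Smpd1, the acid sphingomyelinase, rose from 68.0 ± 2.78 to 107 ± 2.71 CPM and Ppt1, a palmitoyl thioesterase, from 113.5 ± 6.50 to 148 ± 3.99 CPM. Asah1, the acid ceramidase, fell from 198 ± 11.5 to 163 ± 3.69 CPM, lost without HMGB2 1, HMGB2 2 or vector 2 (0.0788 to 0.0904). Sgsh, a sulfamidase, fell from 10.2 ± 0.40 to 7.81 ± 0.81 CPM, lost without any one of the 6 libraries (0.0587 to 0.147). The Sgsh call was also lost without vector 1 and HMGB2 3 together (edgeR adjusted p = 0.13). Of the proton pump, Atp6v0e2 and Tcirg1 rose, to 11.7 ± 1.28 from 7.33 ± 0.54 and to 83.9 ± 3.96 from 66.1 ± 1.94 CPM. Atp6v0d2 and Atp6v1h fell, to 2.83 ± 0.29 from 5.24 ± 0.87 and to 105 ± 9.62 from 130 ± 9.49 CPM, and the call of Atp6v1h was lost without HMGB2 1, HMGB2 2 or vector 2 (0.0883 to 0.142).

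Some of these further genes share sequence with others, and the assignment of shared reads is not stated in the labels. Exons overlap a gene on the opposite strand by at least 10% of their length in Bnip3 (Gm45507, 22.3%), Prkag2 (Prkag2os2, 12.3%) and Sgsh (Card14, 21.6%) among the genes named above. Bnip3l-ps, a copy of Bnip3l that is 99.2% identical over 20.3% of its transcript, was counted at 7.78 to 9.84 CPM, and the copies of Bnip3, Gabarapl2, Laptm4b and Atg9a over 10% or more of the transcript at up to 1.39 CPM.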

How the data were processed

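The authors deposited raw counts per Ensembl gene, whole numbers with 1 column per library, and a second table of FPKM values. Among 2159 genes at an FPKM of 20 or more throughout, the length implied by count, FPKM and total varied by at most 0.0199% (coefficient of variation), so FPKM are these counts rescaled. FastQC 0.10.1, StringTie 1.3.3b, HTSeq 0.6.1, HISAT2 2.2.1 and the build mm10 are named in the submitters' processing notes, without settings, and strand use in counting is not given in the sources used here. Columns were matched to samples by their group abbreviation, which the labels do not explain, and replicate number. RNA was extracted with TRIzol, and the library kit was VAHTS Universal V5, per the labels' protocols.

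Genes kept by filterByExpr (minimum count 10, minimum total 15) were tested with edgeR 4.0.16 (R 4.3.3), using TMM factors (0.986 to 1.02), a robust quasi-likelihood model of group alone, and Benjamini-Hochberg adjustment over all 15429 genes at a threshold of 0.05 with no fold threshold. Alternatives used DESeq2 1.42.0, limma 3.58.1 (voom, and log2 of FPKM plus a pseudocount of 0.1 or 1), other scaling, other filters, a replicate block and fewer libraries. On counts simulated for this comparison (15157 genes tested), edgeR recovered 14% of 50 genes changed 1.25-fold and 70% of 50 changed 1.5-fold. It recovered 86% of 50 changed 2-fold and 100% of 50 changed 4-fold, with 18 false calls in all. In the real comparison 3886 genes passed, far more than were changed in the simulation. The adjusted p depends on how many genes change, so these rates describe the simulation and not recovery in the real data.

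Gene spans came from GENCODE M21 (GRCm38) by identifier, since the positions in the deposited tables do not match it although mm10 is named, and copies from BLAST 2.17.0. Every pair of libraries within a group differed by more than sampling noise (chi-square per degree of freedom at least 2.00). Members and lists were chosen with earlier results of these data known. The text names the members, Hmgb2, up to 2 genes per list and direction past the threshold with the smallest p (the 2 with the highest mean where none passed), the first 2 markers of each cell type, given only where a value turned sign, and the 2 genes nearest to Sqstm1. Prkaa1, Prkaa2 and the Rag GTPase genes fall outside this rule and were chosen after their values were seen. Vamp7 was not matched to a row.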

Additional observations from a re-analysis of the deposited data

How the results depend on the processing

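The 16 alternatives left Sqstm1 past the threshold each time, with adjusted p up to 0.00396. Map1lc3a, Map1lc3b, Gabarapl1, Ulk1, Becn1, Atg7 and Tfeb passed in none of them, and Lamp2 passed in 1. Deviations from the group means of same-numbered libraries correlated at -0.318, 0.231 and -0.375 (across 15429 genes). Those of vector 1 and HMGB2 3 correlated at 0.521. Centring within each group of 3 ties these values to each other, so they cannot show whether same-numbered libraries were prepared as pairs. With the replicate number as a block, 2213 genes passed in place of 3886. Without vector 1 and HMGB2 3 together, an alternative chosen after seeing the data, 6251 passed. Counts of the 9 members past the threshold were 0 risen (1 without vector 1 and HMGB2 3) and 1 fallen, in that setting too.

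Log2 fold changes that turned sign were all under 0.3 in size and none passed on the other side. For Map1lc3b they were -0.0043, -0.0031 and -0.0015 without HMGB2 3, vector 2 and vector 3 (up to 0.12 without vector 1). For Ulk1 they were -0.0047 with DESeq2, -0.0081 with RLE factors, -0.019 without vector 1 and HMGB2 3, and -0.050, -0.053 and -0.0037 without HMGB2 2, vector 1 and vector 2 (up to 0.071 without vector 3). Atg7 was at -0.0042 without vector 3 and up to 0.14 without vector 2. Among the first 2 markers of each cell type, Adgre1 (0.01) was at -0.0025 with RLE factors, -0.018 on log2(FPKM + 0.1), -0.064 with voom, -0.023 with the block, and -0.076, -0.293 and -0.244 without HMGB2 1, HMGB2 2 and vector 3 (0.35 without HMGB2 3 and up to 0.54 without vector 1 and HMGB2 3 together). Rgs5 was at 0.0089 and 0.0082 with limma at pseudocounts of 0.1 and 1, 0.014 with total counts, and 0.110, 0.0060 and 0.026 without HMGB2 1, vector 1 and vector 3 (down to -0.10 without HMGB2 2). Myh11 (-0.03) was at 0.0090 without vector 1 and HMGB2 3, and at 0.097 and 0.061 without HMGB2 3 and vector 3 (down to -0.13 without HMGB2 1). Wt1 was at 0.013 without vector 3 and down to -0.18 without vector 2.

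Counts of further pathway genes moved by over 1.5 times as follows, and the cause was not tested. Without vector 1 and HMGB2 3 together, 53 rose and 24 fell. The risen genes held 2 on the class III list, 1 other ATG8 gene, 5 receptors and 2 fusion genes. They also held 11 mTORC1 and AMPK genes, 1 transcription factor, 16 hydrolases and 7 vacuolar ATPase genes. The fallen genes held 2 lipid transfer genes, 5 receptors, 2 fusion genes, 2 membrane genes and 4 hydrolases. With the replicate block 14 rose (0 conjugation, 1 receptor, 0 fusion, 2 membrane, 3 hydrolase genes) and 2 fell (0 lipid transfer, 0 conjugation, 0 receptor, 0 mTORC1 and AMPK, 0 hydrolase, 1 ATPase gene). With limma at either pseudocount 0 conjugation, 0 fusion and 2 membrane genes rose, and 4 fell in all (0 lipid transfer, 1 conjugation, 0 mTORC1 and AMPK, 0 hydrolase, 1 ATPase gene). DESeq2 gave 0 conjugation and 0 fusion genes risen, and 1 conjugation and 1 hydrolase gene fallen. RLE factors gave 0 fusion genes risen and 2 receptors fallen, and the filter of 50 counts 2 receptors fallen. Without a filter, 0 fusion genes and 1 transcription factor rose, and 0 lipid transfer, 1 conjugation, 2 receptor, 1 membrane and 1 hydrolase gene fell. With total counts 1 transcription factor rose and 7 fell in all (1 each of conjugation, mTORC1 and AMPK, hydrolase and ATPase genes). Counts over all tested genes also differed between these fits. Of 15429 genes, 2224 rose and 1662 fell in the fit used above. The block gave 1459 and 754, RLE factors 2157 and 1772, and total counts 2308 and 1417. Limma at a pseudocount of 0.1 gave 1832 and 1034 of 20288, and DESeq2 1898 and 1504 of 17301. The filter of 50 counts gave 1993 and 1571 of 12194, and no filter 2432 and 1868 of 31188.

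Leaving out 1 library gave 16 to 35 risen and 3 to 12 fallen. By list, risen genes were 0 to 1 (class III, conjugation, fusion), 1 to 3 (receptors), 4 to 7 (mTORC1 and AMPK), 2 to 5 (membrane), 4 to 11 (hydrolases) and 2 to 5 (ATPase), and fallen genes 0 to 1 (lipid transfer, membrane, hydrolases), 0 to 2 (conjugation), 1 to 2 (receptors, ATPase) and 0 to 3 (mTORC1 and AMPK). Shares of the ATG8 genes by counts, which are not per length, were 5.54% and 5.88% for Map1lc3a (vector and HMGB2), 19.5% and 19.0% for Map1lc3b, 47.2% and 48.7% for Gabarap, 20.5% and 18.9% for Gabarapl1, and 7.22% and 7.51% for Gabarapl2. By counts, the Sqstm1 to ATG8 ratio differed by -0.84 (log2).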
